A study of Mus musculus with 7 samples.

Results

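Tachykinins and opioid peptides are families of neuropeptides that neurons release beside their fast transmitter. The genes described here are 10 of the 25871 gene columns in the nuclear RNA tables: the tachykinin precursors Tac1 and Tac2, the opioid precursors Penk and Pdyn, the tachykinin receptors Tacr1 and Tacr3, and the opioid receptor family Oprm1, Oprd1, Oprk1 and Oprl1. They were listed by name, with earlier results of these data known, so counts over them are descriptions. Each precursor protein is cut in secretory vesicles into short active peptides: Tac1 gives substance P and neurokinin A, Tac2 gives neurokinin B, Penk gives the enkephalins and Pdyn gives the dynorphins. The receptors are G protein-coupled. Tacr1 is the receptor that prefers substance P and Tacr3 the one that prefers neurokinin B, while Oprm1, Oprd1 and Oprk1 encode the mu, delta and kappa opioid receptors and Oprl1 the related receptor for nociceptin. In the cortex these peptides are known as markers of subtypes of GABAergic interneurons.

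The expression data came from nuclei of the primary visual cortex of C57BL/6J mice aged 6 to 10 weeks, injected with a pooled AAV9 library of candidate regulatory elements, so no uninjected nuclei were measured. They form 1 sample made of 10 droplet (inDrops) libraries in 2 sets of 5, and the study's methods give 5 libraries per animal, although neither the labels nor the methods say which libraries came from which animal. The chromatin data came from whole cortex of uninjected mice aged 6 to 12 weeks that carried SUN1-2xsfGFP-6xMYC, a Cre-dependent nuclear membrane tag, together with Sst-IRES-Cre, Pv-Cre or Vip-IRES-Cre, and tagged nuclei were purified with an antibody against GFP before ATAC-seq. Each of the 3 interneuron types, somatostatin (SST), parvalbumin (PV) and vasoactive intestinal peptide (VIP), had 2 replicates, each from nuclei of a single animal per the study's methods. The labels call all samples male, whereas the described breeding for ATAC-seq names both sexes. What is called SST, PV or VIP chromatin is whatever cells the Cre line marks, and no excitatory or glial chromatin was measured.

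In the nuclear RNA, 32335 of 47348 barcodes had more than 200 non-viral UMIs (unique molecular identifiers, each a counted RNA molecule), and library totals ran from 2496224 to 3041931 UMIs. Cell types were set by UMIs of marker genes, none of them a member. The gates held 592 SST, 236 PV, 325 VIP and 280 NPY (neuropeptide Y) nuclei, 781 other inhibitory nuclei, 17504 excitatory nuclei, 1588 astrocytes and 1264 oligodendrocytes, with 8894 nuclei not gated. A level is the UMIs of a gene per 10000 UMIs of the gate, with an exact 95% Poisson interval that covers counting error only. With 1 sample there is no test between gates. The gates fix the levels of their own markers (Sst at 179 per 10000 in SST, Pvalb at 22.2 in PV, Vip at 142 in VIP), so these describe the gates and do not check the labels. Of 25866 barcode names in kept nuclei, 5476 occurred in more than 1 library, and of 3554 pairs of gated nuclei with 1 name, 74.3% lay in the same gate against 56.8% from gate sizes alone. The part of such shared names and of doublets in the levels was not tested, since no doublet caller was run.

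Peptide precursors were the members with the sharpest differences between cell types. Taking all 2214 inhibitory nuclei against excitatory nuclei, 7 of 10 members were at least 2-fold higher in inhibitory nuclei and 0 were at least 2-fold lower. Without library 2 of set 2 the count was 6, since the ratio of Oprd1 went from 2.01 to 1.49. Over all 16235 genes with enough UMIs for this ratio, 7.59% were at least 2-fold higher and 12.9% at least 2-fold lower. The median ratio was 4.43 over the members and 0.975 over all genes. The inhibitory to excitatory ratio was 134 for Tac2 (95% interval 86.0 to 219), 48.8 for Tac1 (38.0 to 63.5), 19.9 for Pdyn (15.8 to 25.2) and 8.14 for Penk (7.36 to 9.0). The ratio of Tac2 rests on 21 excitatory UMIs, 17 of them in set 1, and was 92.2 in set 1 and 313 in set 2. All 4 precursors were higher in inhibitory nuclei in 10 of 10 libraries.

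**Figure D1:**
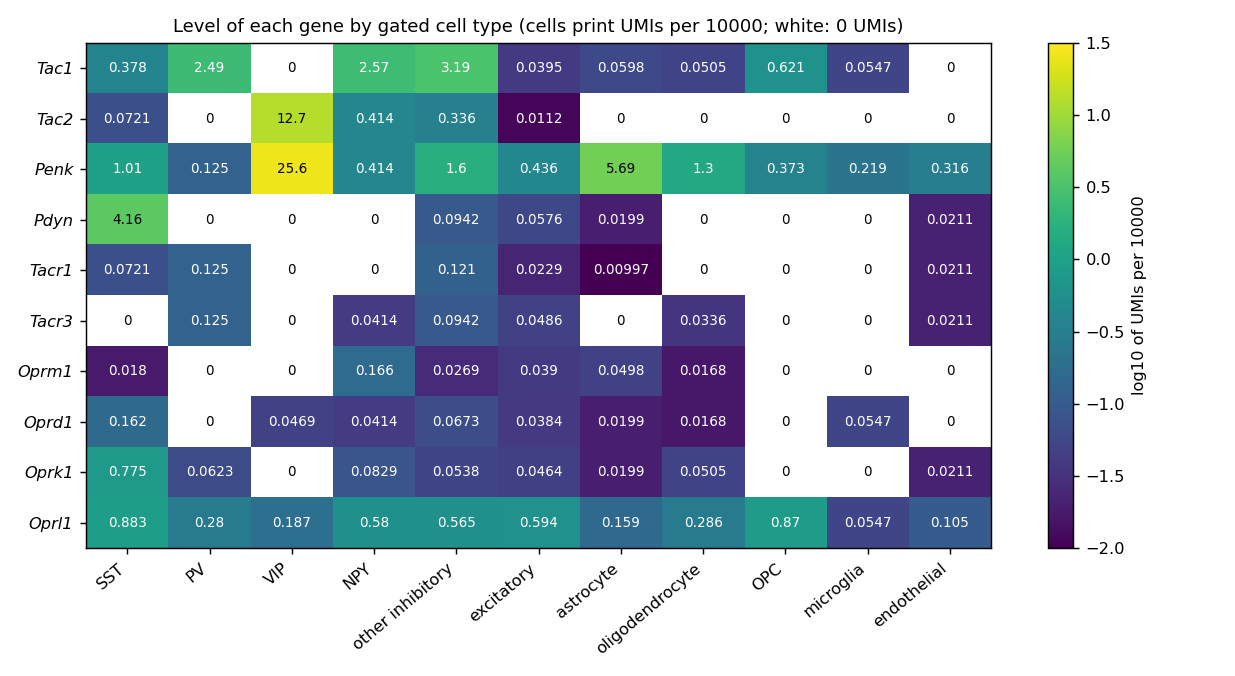
Level of each of the 10 genes (rows) in each gated cell type (columns), as UMIs per 10000 UMIs printed in the cell and on a log10 colour scale, with white for 0 UMIs. Penk (25.6) and Tac2 (12.7) stand out in VIP, Pdyn (4.16) in SST, and Tac1 in PV (2.49), NPY (2.57) and other inhibitory nuclei (3.19), while the receptor rows stay below 1.

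Tac1, the substance P precursor, was spread over inhibitory nuclei that were neither SST nor VIP. Its level was 3.19 per 10000 in other inhibitory nuclei (2.79 to 3.62), with 1.24 in the lowest library, a median of 2.58 and 5.39 in the highest. In NPY nuclei it was 2.57 (1.97 to 3.29), with libraries from 0.336 over a median of 2.21 to 6.18. In PV nuclei it was 2.49 (1.98 to 3.10), with libraries from 0.437 over a median of 1.72 to 8.32. These 3 gates had overlapping intervals and overlapping libraries, so their order is not set. The pooled PV level was 4.14 (3.07 to 5.45) in set 1 and 1.5 (1.01 to 2.14) in set 2. Libraries overlapped, from 0.437 to 8.32 in set 1 and from 0.78 to 2.59 in set 2. Libraries 2 and 3 of set 1 held 23 and 17 of the 80 PV UMIs, so a difference between the sets is not set.

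A Tac1 UMI was found in 96 of 781 other inhibitory nuclei (12.3%) and in 37 of 236 PV nuclei (15.7%). The count was 21 of 280 in NPY nuclei (7.50%), against 54 of 17504 in excitatory nuclei (0.309%). PV nuclei were deeper, with a median of 1335 UMIs against 867 in other inhibitory and 808 in NPY nuclei. Thinning each nucleus to 300 UMIs gave 6.75% in other inhibitory, 5.96% in PV, 4.69% in NPY and 0.097% in excitatory nuclei. PV was then not the highest, so the order of these inhibitory shares is not set. SST nuclei were low at 0.378 (0.234 to 0.578), from 9 nuclei and close to the 0.209 of barcodes at or below 200 UMIs, which left PV 6.59-fold above SST (4.03 to 11.2). Of the 21 Tac1 UMIs in SST nuclei, 20 came from nuclei with 2 or more Npy UMIs. VIP nuclei held 0 Tac1 UMIs. With VIP set to a floor of 3 UMIs, PV was 17.7-fold higher, and the exact interval of the ratio had a lower limit of 14.1. Among NPY nuclei, those with Tac1 had a lower Npy level than those without it, 39.1 against 136 per 10000, and the summed inhibitory markers were 39.1 against 59.4. In other inhibitory nuclei, which held 237 of the 400 inhibitory Tac1 UMIs, Npy was at 1.96 with Tac1 and 10.9 without. Among PV nuclei the order was the opposite, and the Npy level was 6.63 with Tac1 and 1.41 without, and Pvalb was 18.3 and 23.0. The NPY gate selects on Npy and other inhibitory nuclei are those left after it. Nuclei with Tac1 were also deeper, with medians of 1069 against 781 UMIs in NPY and 1086 against 826 in other inhibitory nuclei. The part of the gate rule and of depth in the Npy differences was not tested.

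Tac2, the neurokinin B precursor, was found mainly in VIP nuclei, which held 272 of its 497 UMIs, with 165 in nuclei that were not gated. Its level there was 12.7 per 10000 (11.3 to 14.4), with libraries from 7.33 over a median of 13.3 to 17.4, and the library sets were alike at 12.6 and 12.9. Of 325 VIP nuclei, 107 (32.9%) had a Tac2 UMI, and thinning each nucleus to 300 UMIs gave 25.2%. Every library had a higher level in VIP than the pooled level of any other gate, which was 0.414 in NPY and 0.336 in other inhibitory nuclei. The NPY value was 0.236 without library 2 of set 1, in which 1 nucleus held 5 of the 10 UMIs, so the order of these 2 gates is not set. SST nuclei had 4 Tac2 UMIs and PV nuclei 0. VIP was 60.8-fold above the rest of the inhibitory nuclei (43.4 to 87.4), and excitatory nuclei stood at 0.0112, from 21 UMIs. The level in barcodes at or below 200 UMIs was 0.121.

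Penk, the enkephalin precursor, had its highest level in the same VIP gate. It reached 25.6 per 10000 (23.5 to 27.9), with libraries from 13.2 over a median of 24.2 to 48.3 and library sets at 26.3 and 24.9. A Penk UMI was present in 146 of 325 VIP nuclei (44.9%, or 35.7% after thinning). The level in VIP was 25.2-fold that in the rest of the inhibitory nuclei (21.4 to 29.9), where it was 1.60 in other inhibitory, 1.01 in SST, 0.414 in NPY and 0.125 in PV nuclei. The last 2 values rest on 10 and 4 UMIs, and were 0.224 without library 3 of set 2 and 0.0682 without library 2 of set 1. Barcodes at or below 200 UMIs, which include droplets without a nucleus, had a Penk level of 0.961. This lies within the SST interval (0.762 to 1.31) and above NPY and PV, so Penk in these 3 gates as wholes was not read as expression. PV stood at 0.124 times SST (0.0325 to 0.334), so the low barcodes' level was not one that all gates shared. The part of RNA from outside the nuclei in the SST level was not tested. Other inhibitory nuclei stood at 2.28 in set 1 and 0.978 (0.692 to 1.34) in set 2, where the interval holds the low barcodes' level. Their libraries ran from 0.241 to 4.49, and 1 nucleus held 19 of the 119 UMIs. Without the limit on excitatory UMIs in the gates, which is a setting added after the values were seen, Penk in VIP was 19.5.

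Tac2 and Penk were detected in partly different VIP nuclei. Tac2 was seen in 22.6% of the 146 VIP nuclei with Penk and in 41.3% of the 179 without it, and 33 nuclei had both. The Tac2 level was 9.24 per 10000 in nuclei with Penk and 15.7 in those without, a ratio of 0.589 (0.452 to 0.762). Other peptide genes were higher with Tac2. Crh, the corticotropin-releasing hormone gene, stood at 36.2 in VIP nuclei with Tac2 against 10.9 without (ratio 3.32, 2.71 to 4.08), and Npy at 13.2 against 2.22 (ratio 5.95, 3.94 to 9.23). The ratio was 2.53 for Cck (cholecystokinin; 1.85 to 3.47) and 2.35 for Pnoc (1.61 to 3.46). Nuclei with Penk had less Npy than those without, at 0.924 against 10.3 (ratio 0.0893, 0.0398 to 0.175), and a Cck ratio of 0.564 (0.402 to 0.784). The ratios of Crh (0.993, 0.815 to 1.21) and Pnoc (1.34, 0.918 to 1.97) with Penk had intervals that hold 1. The summed fibroblast genes listed in the next paragraph were also higher in VIP nuclei with Penk, at 4.93 per 10000 (48 UMIs) against 0.949 (11 UMIs) without, and their part in these differences was not tested. Of 109 VIP nuclei with 2 or more Penk UMIs, 2 had 3 or more fibroblast UMIs, and these 2 held 20 of the 510 Penk UMIs of the 109.

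Outside VIP nuclei, the astrocyte gate was the next highest in Penk at 5.69 per 10000 (5.23 to 6.18), with libraries from 2.02 over a median of 4.39 to 16.1. Most of it came from a minority of nuclei: 77 nuclei with 2 or more Penk UMIs held 536 of the 571 UMIs. Those nuclei were deeper than the nuclei without Penk (median 1373 against 363 UMIs) and also differed in markers of other cell types. The summed level of 8 fibroblast genes (Col1a1, Col1a2, Dcn, Lum, Slc6a13, Igf2, Apod and Cemip, a list chosen after the values were seen) was 103 per 10000 against 28.7 in nuclei without Penk. Of the 8, 4 were higher (Col1a1 at 24.6 against 5.29, Col1a2 at 50.2 against 7.57, Dcn at 17.8 against 3.09 and Igf2 at 6.89 against 4.53) and 4 lower (Lum at 0.133 against 0.757, Slc6a13 at 0.265 against 1.60, Apod at 2.65 against 5.42 and Cemip at 0.0663 against 0.464), so the sum is carried by the collagen genes and Dcn. Endothelial markers stood at 11.4 against 2.16 and layer 6 markers at 8.22 against 1.81, and oligodendrocyte, microglia and layer 5 markers were also higher. The excitatory list was lower, at 3.31 against 11.6. So were inhibitory (0.729 against 1.56), layer 2/3 (1.19 against 2.87), layer 4 (0.199 against 2.32), oligodendrocyte precursor and mural markers. The summed astrocyte markers were lower too, at 65.9 against 260. The part of these other markers and of depth in the Penk level was not tested. Of the 77 nuclei, 56 (72.7%) had 3 or more fibroblast UMIs, against 110 of 1476 (7.45%) of those without Penk. In the 1408 astrocyte-gate nuclei with fewer than 3 fibroblast UMIs the Penk level was 1.30 (1.06 to 1.59), and in the other 180 it was 18.8 (17.2 to 20.6). Among nuclei that were not gated, which held 37.0% of all Penk UMIs, the same division gave 1.12 and 18.5.

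Excitatory nuclei had little Penk, at 0.436 per 10000 (0.407 to 0.467). Of its 817 UMIs, 147 lay in nuclei placed in layer 2/3 and 57 in nuclei placed in the other layers. The rest, the larger part, lay in excitatory nuclei without a layer, so the layers describe a minority of this Penk. Layer 2/3 nuclei stood at 0.712 (0.601 to 0.837), with libraries from 0.306 over a median of 0.668 to 1.60, against 0.109 in layer 4 (0.0682 without library 4 of set 2), 0.137 in layer 5 and 0.0606 in layer 6. Layer 2/3 was 6.15-fold above the other layers (4.50 to 8.50) and higher in 10 of 10 libraries. Without the highest library the level was 0.636 and the ratio 5.44 (3.91 to 7.66). The excitatory level as a whole differed between the library sets, at 0.575 in set 1 and 0.309 in set 2 (ratio 1.86, 1.61 to 2.15), with every library of set 1 above every library of set 2, and layer 2/3 nuclei made up 7.75% and 8.53% of excitatory nuclei in the 2 sets. After thinning to 300 UMIs a Penk UMI was found in 1.97% of layer 2/3 nuclei and 1.15% of all excitatory nuclei, against 0.794% of microglia, 1.32% of endothelial nuclei, 1.34% of OPC nuclei (oligodendrocyte precursors) and 1.78% of oligodendrocytes, so the excitatory share as a whole lay within the range of these gates. The low barcodes, at 0.961, lay above excitatory nuclei and layer 2/3.

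Among the precursors, Pdyn, which gives the dynorphins, was the one that set SST nuclei apart. Its level in SST was 4.16 per 10000 (3.64 to 4.73), with libraries from 1.17 over a median of 4.63 to 6.55, and 3.17 and 5.05 in the library sets. PV, VIP and NPY nuclei held 0 Pdyn UMIs and other inhibitory nuclei held 7, so SST was 90.3-fold above the other inhibitory gates combined (43.1 to 227), in 10 of 10 libraries. A Pdyn UMI was present in 106 of 592 SST nuclei (17.9%, or 9.74% after thinning), against 0.155% of excitatory nuclei after thinning. Within SST, nuclei with 2 or more Npy UMIs had 3.33 per 10000 and nuclei without Npy 5.02 (ratio 0.662, 0.494 to 0.888). Excitatory nuclei stood at 0.0576, with layer 2/3 at 0.140 and 4.07-fold above the other layers (2.16 to 7.89), and the barcodes at or below 200 UMIs stood at 0.165.

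**Figure D2:**
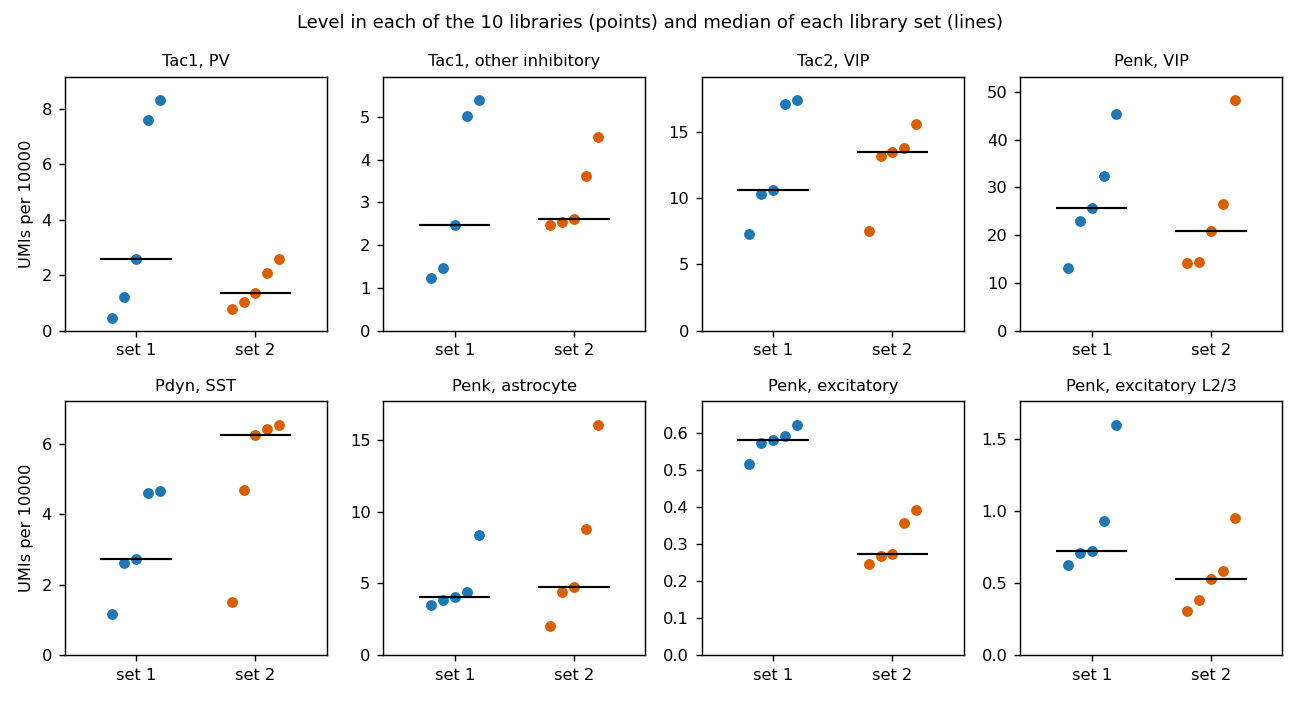
Level in UMIs per 10000 in each of the 10 libraries (points), by library set on the x axis, with the median of each set as a line; each panel is 1 gene in 1 gate and its y axis starts at 0. Tac2 in VIP (7.33 to 17.4) and Pdyn in SST (1.17 to 6.55) were above 0 in every library, Tac1 in PV ranged from 0.437 to 8.32, and the highest library of Penk in the astrocyte gate (16.1) stood apart from the others.

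Within SST nuclei, Penk was seen in 1.89% of the 106 nuclei with Pdyn and in 5.35% of those without it, and 2 nuclei had both. The Penk level was 0.231 against 1.25 per 10000 (ratio 0.186, 0.0371 to 0.572), where the low barcodes stood at 0.961, and the part of RNA from outside the nuclei was not tested. SST nuclei with 2 or more Npy UMIs had a Penk level of 1.38 (0.988 to 1.87), or 1.15 from 30 UMIs without library 5 of set 1. The low barcodes' 0.961 rests on 175 UMIs, so whether this level lies above them is not set. The 9 SST nuclei with Chodl, a marker of long-range SST cells, held 8 Penk UMIs, a level of 8.78 (3.79 to 17.3). Compared with the rest of the inhibitory nuclei, SST was at least 2-fold higher for 2 of the 6 members with enough UMIs (Pdyn and Oprk1) and at least 2-fold lower for 3 (Tac1 at a ratio of 0.152, Tac2 at 0.0357, or 0.0197 without library 3 of set 1, and Penk at 0.225). For Penk the pooled levels by library set were 0.764 in SST against 5.44 in the rest in set 1, and 1.23 against 3.64 in set 2. Oprl1, at 1.94, was at 2.26 without library 4 of set 2. Over all 10089 genes with enough UMIs, 3.37% were at least 2-fold higher in SST and 8.0% at least 2-fold lower.

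The receptors other than Oprl1 rest on fewer UMIs than the precursors. All kept nuclei together held 76 Tacr1, 129 Tacr3, 104 Oprm1, 105 Oprd1, 189 Oprk1 and 1548 Oprl1 UMIs. Barcodes at or below 200 UMIs had 0.0275 per 10000 for Tacr1, 0.0659 for Tacr3, 0.0330 for both Oprm1 and Oprd1, 0.0549 for Oprk1 and 0.467 for Oprl1. In excitatory nuclei the levels were 0.0229 for Tacr1, 0.0486 for Tacr3, 0.0390 for Oprm1, 0.0384 for Oprd1, 0.0464 for Oprk1 and 0.594 for Oprl1. Apart from Oprl1, the excitatory levels were close to or below those of the low barcodes, and none of these was read as expression. Excitatory Oprl1 lay above the low barcodes, also in its lowest library (0.488). The part of RNA from outside the nuclei in it was not tested.

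Of the tachykinin receptors, Tacr1 had 17 UMIs in inhibitory nuclei (0.0820 per 10000) and 43 in excitatory nuclei, a ratio of 3.57 (1.91 to 6.39), in 8 of 10 libraries. PV (0.125, or 0.0710 without library 3 of set 2), other inhibitory (0.121) and SST (0.0721) nuclei held all of the inhibitory UMIs, and VIP and NPY nuclei held 0. Tacr3 did not differ detectably between inhibitory and excitatory nuclei, with a ratio of 1.19 (0.594 to 2.18). SST and VIP nuclei held 0.

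Among the opioid receptors, Oprk1 had the clearest pattern. Its level was 0.775 per 10000 in SST (0.561 to 1.04), with libraries from 0 over a median of 0.807 to 1.28, and 9 of 10 libraries held at least 1 UMI. That is 14.7-fold above the other inhibitory gates (6.84 to 36.2), and VIP nuclei held 0. With VIP set to a floor of 3 UMIs, SST was 5.51-fold higher, and the exact interval of the ratio had a lower limit of 4.29. The receptor gene and its ligand precursor Pdyn were thus both highest in SST. Of 106 SST nuclei with Pdyn, 11 (10.4%) had Oprk1, against 3.70% of those without, but the nuclei with Pdyn were deeper (median 1047 against 737 UMIs) and the ratio of levels was 1.76 with an interval from 0.872 to 3.40. Whether Oprk1 went with Pdyn within SST nuclei was therefore not detectable at this depth.

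Oprl1, the nociceptin receptor, had UMIs in every gate but the 20 mural nuclei. It stood at 0.594 per 10000 in excitatory nuclei (0.560 to 0.630), with libraries from 0.488 over a median of 0.598 to 0.681, and at 0.883 in SST (0.653 to 1.17), with libraries from 0.507 over a median of 0.935 to 1.26. The low barcodes stood at 0.467, below the lowest library of both gates. Layer 5 nuclei stood at 0.742 (0.648 to 0.846), 1.39-fold above the other layers (1.14 to 1.68) and higher in 8 of 10 libraries. NPY (0.580) and other inhibitory nuclei (0.565) were close to the excitatory level, and PV (0.280), VIP (0.187) and astrocytes (0.159) were lower. OPC nuclei stood at 0.870, from 7 UMIs. SST exceeded VIP 4.71-fold (1.73 to 18.0), although the VIP value rests on 4 UMIs and was 0.103 without library 3 of set 1. Inhibitory and excitatory nuclei as wholes did not differ detectably, with a ratio of 0.958 (0.785 to 1.16).

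Oprd1 had 16 UMIs in inhibitory nuclei and a ratio to excitatory nuclei of 2.01 (1.09 to 3.49). Of these, 9 lay in SST (0.162 per 10000, 0.0741 to 0.308), from 4 libraries, and PV held 0. Library 2 of set 2 held 5 of the 9, and without it the SST level was 0.0808 and the ratio to excitatory nuclei 1.49 (0.709 to 2.84). Oprm1, the mu receptor, was at 7 inhibitory UMIs, with a ratio of 0.866 (0.336 to 1.88) that leaves no detectable difference. NPY nuclei held 4 of these (2 without library 1 of set 1) and PV and VIP nuclei 0.

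Related genes of the same pathways gave a background for these members. Pnoc, the nociceptin precursor, was 46.9-fold higher in inhibitory nuclei (36.8 to 60.3) and was the 1 gene of 3 measured among the other ligands and receptors listed that passed 2-fold. A list of 13 genes for peptide processing and degradation also held the secretory granule proteins Scg2, Chga and Chgb. Of the 13, 4 were at least 2-fold higher in inhibitory nuclei (Pam at 2.25, Qpct at 2.16, Scg2 at 2.69 and Ece2 at 5.17). Pcsk2, a prohormone convertase, was the 1 gene lower, at 0.221, and the median ratio was 1.07. Of 17 measured signalling effectors, 1 was higher (Grk3 at 2.48) and 1 lower (Rgs4 at 0.253), with a median of 0.873. In the contrast of SST with other inhibitory nuclei none of these lists had a gene 2-fold higher, and Pnoc (0.481), Qpct (0.421), Kcnj3 (0.421) and Kcnj9 (0.457) were lower.

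The genes with the most similar pattern over 14 gated cell types were found by Pearson's r of log2 levels among 11398 candidate genes. For Tac2 these were Npy2r (0.974), Htr3a (0.965) and Vip (0.952), the last used in the gates. For Pdyn they were 4930452B06Rik (0.899), Sst (0.892, used in the gates) and Doc2b (0.810), and for Oprk1 they were Pdyn (0.891), Sst (0.887) and Doc2b (0.857). Penk went most closely with Crispld2 (0.875), Crh (0.794) and Cxcl14 (0.791), and Tac1 with Nog (0.891), Akr1b10 (0.890) and Tti1 (0.889). The points share 1 sample and small gates are noisy, so these are descriptions.

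Chromatin accessibility near the members was read from ATAC-seq counts in a fixed set of 323369 cortical regions (mm10). Sample totals ran from 1801883 to 2256073 reads, and 40338 regions passed the filter on low counts. Each type was compared with the mean of the other 2 types in edgeR's quasi-likelihood test, with Benjamini-Hochberg adjustment over all tested regions. The 3 comparisons share the same 6 samples. The region at the Sst start had 33 and 32 reads in SST against 2 to 4 elsewhere, and the one at the Vip start had 26 and 37 reads in VIP against 0 to 5 elsewhere, whereas no tested region lay at the Pvalb start, so the PV label was not checked in this way.

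On the GENCODE annotation of this build the precursor genes lay with Tac1 at chr6:7554879-7565834, Tac2 at chr10:127724478-127731768, Penk at chr4:4133531-4138819 and Pdyn at chr2:129686565-129699844. The receptor genes lay with Tacr1 at chr6:82402334-82560104, Tacr3 at chr3:134829007-134934579, Oprm1 at chr10:6758506-7038198, Oprd1 at chr4:132110726-132144486, Oprk1 at chr1:5588466-5606131 and Oprl1 at chr2:181715016-181720985. Pdyn, Penk and Oprd1 are on the minus strand and the others on the plus strand.

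Within 50 kb of the 10 genes lay 240 regions, of which 28 were tested. In SST, 7 of the 28 were higher and 1 lower, where 8.15% of all tested regions were higher and 5.41% lower. In PV, 6 were higher and 5 lower, where 17.1% and 11.7% of all regions were. In VIP, 7 were higher and 10 lower, where 24.9% and 24.0% of all regions were. A type called higher than the mean of the other 2 need not exceed both. At the 3 Oprd1 regions called higher in SST, the SST CPM was 0.891 to 1.15 times that of PV, and at the Oprl1 start 1.17 times. Where a type had 0 reads in both samples, the fitted fold changes and SEs of all 3 comparisons at that region depend on the prior count and are no bound. These are 36 calls in all, and each was repeated in 10 other settings: another normalization, another test, no filter on low counts, a replicate block and each of the 6 samples left out. No call changed direction, and the count of settings that kept it is given below for calls that were lost in 1 or more.

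**Figure D3:**
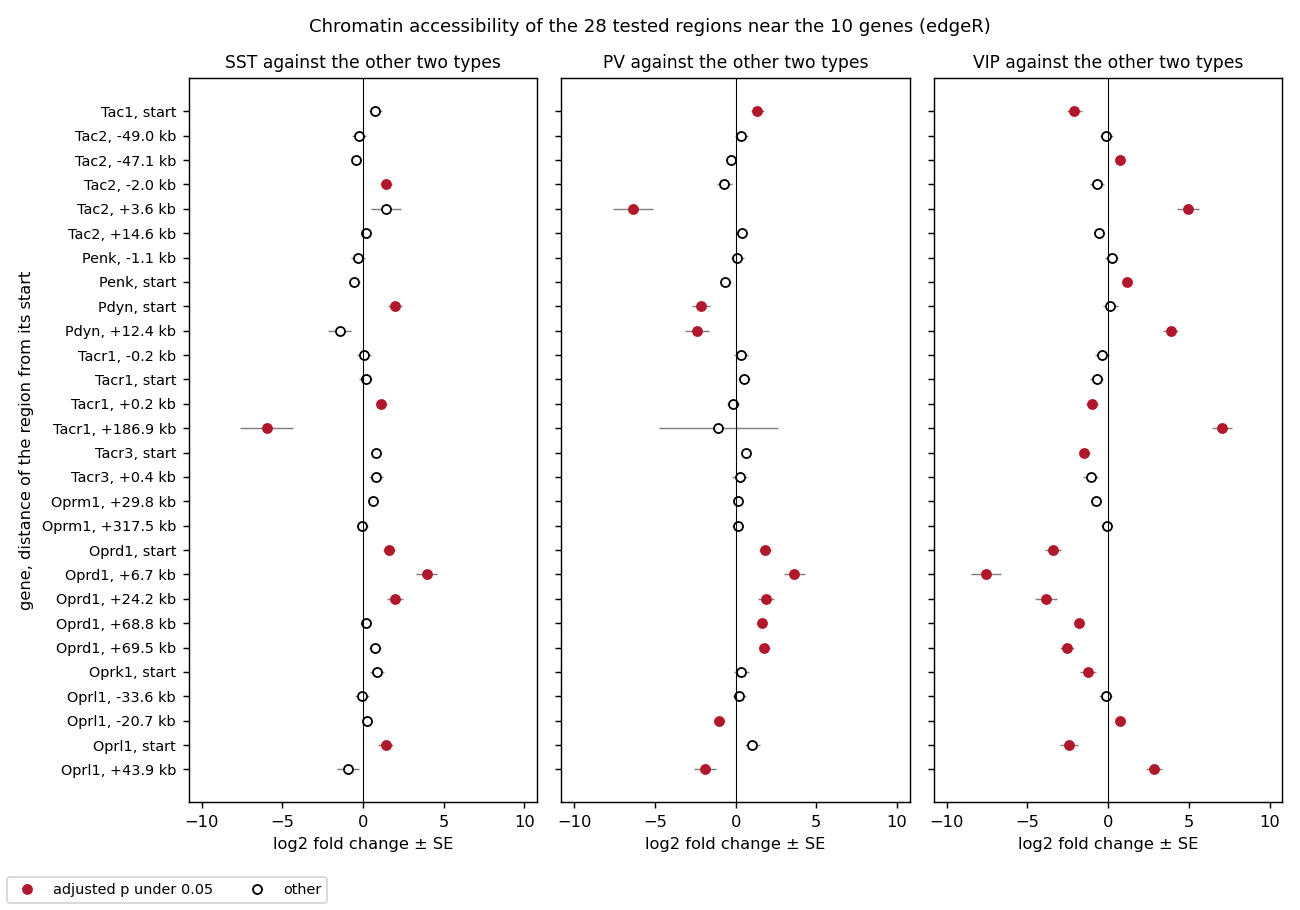
The log2 fold change ± SE of each of the 28 tested regions near the 10 genes (y axis: gene and distance from its start) in SST, PV and VIP against the other types, with coloured points for calls at an adjusted p under 0.05. Regions of Oprd1 lie to the left in VIP (down to -7.58) and to the right in SST and PV, and 1 region each of Tac2 (4.96), Pdyn (3.87), Tacr1 (7.04) and Oprl1 (2.83) lies far to the right in VIP, with other regions of Tac2, Tacr1 and Oprl1 to the left.

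At the Tac1 start the region chr6:7554746-7555624 had a CPM (read count scaled to the sample's total) of 8.40 and 7.54 in SST, 9.66 and 11.1 in PV, and 1.49 and 2.68 in VIP. Both VIP samples were below all 4 others. VIP was lower by a log2 fold change of -2.10 ± 0.472 (SE; edgeR adjusted p = 0.00152), kept in all 10 settings. PV was higher (1.34 ± 0.394; edgeR adjusted p = 0.0179), but the call was kept in 5 of 10 settings and was lost without PV replicate 1, PV replicate 2 or VIP replicate 1. In these bulk samples a larger share of nuclei with an open region and a more open region per nucleus cannot be told apart.

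Sequence is printed for Tac1 and Pdyn, precursor starts at which a test separated types, as the 300 bases before the annotated start on the coding strand (mm10). The Penk start, described below, also separated types but had no entry among the promoter sequences, so it is not printed. Capitals mark matches to letters searched on both strands: TGCGTCA, found in 2.17% of 21938 such windows, TGACTCA in 4.61%, TAATTA in 6.03%, CAGCTG in 14.2% and TATAAA in 13.7%. Tac1 (chr6:7554579-7554878, plus strand) held TGACTCA on the reverse strand at base 140 and TGCGTCA at base 284. Pdyn (chr2:129699845-129700144, minus strand) held TATAAA at base 270.
Tac1 start: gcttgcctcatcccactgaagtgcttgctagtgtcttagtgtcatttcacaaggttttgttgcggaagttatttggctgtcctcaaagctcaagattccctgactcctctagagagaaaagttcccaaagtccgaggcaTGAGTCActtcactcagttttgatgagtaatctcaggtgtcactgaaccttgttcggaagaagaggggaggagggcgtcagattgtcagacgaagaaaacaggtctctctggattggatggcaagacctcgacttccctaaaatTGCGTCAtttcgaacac
Pdyn start: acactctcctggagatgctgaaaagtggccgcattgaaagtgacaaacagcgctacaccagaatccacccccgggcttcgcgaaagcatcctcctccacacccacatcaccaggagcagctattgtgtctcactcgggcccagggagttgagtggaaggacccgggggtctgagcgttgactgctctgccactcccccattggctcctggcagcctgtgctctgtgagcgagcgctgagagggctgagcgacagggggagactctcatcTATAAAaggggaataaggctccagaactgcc
A match is a description of these letters and does not show a bound factor.

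The Pdyn start region chr2:129699497-129700379 had 8.92 and 9.75 CPM in SST, 1.53 and 1.11 in PV, and 4.47 and 3.58 in VIP. SST samples were the highest and PV the lowest, without overlap. SST was higher (2.00 ± 0.431; edgeR adjusted p = 0.00509), kept in 8 of 10 settings, and PV lower (-2.15 ± 0.570; edgeR adjusted p = 0.0102), kept in 6 and lost without PV replicate 1 or PV replicate 2. In VIP nuclei Pdyn RNA was at 0 UMIs while its start had reads. A second Pdyn region, 12420 bases from the start over an untranslated exon part (chr2:129686734-129687424), had VIP in place of SST as the highest type, with 16.9 and 24.6 CPM in VIP against at most 2.03 elsewhere. VIP was higher there (3.87 ± 0.467; edgeR adjusted p = 5.37e-06) in all 10 settings, and PV lower (-2.42; edgeR adjusted p = 0.0217) in 7, lost without PV replicate 2.

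Tac2 had its called region 3610 bases into the gene, over a coding exon (chr10:127728088-127728926). It had 13.9 and 9.39 CPM in VIP, 2.10 and 2.22 in SST and 0 in both PV samples. VIP was higher (4.96 ± 0.664; edgeR adjusted p = 2.04e-05) and PV lower (edgeR adjusted p = 0.00167), and both calls were kept in all 10 settings. With PV set to a floor of 3 reads, it was 8.60-fold below the mean of the other types. By CPM, VIP was 5.33-fold above SST. This is the same direction as the RNA, in which VIP held most Tac2 UMIs. A region about 2 kb before the start went the other way, higher in SST (1.41 ± 0.382; edgeR adjusted p = 0.0198), with 17.9 and 12.0 CPM against 2.98 to 8.05 elsewhere, and was kept in 6 of 10 settings, lost without SST replicate 1 or VIP replicate 1. The remaining call near Tac2 lay in the neighbouring gene Nemp1, higher in VIP (0.75; edgeR adjusted p = 0.0117), kept in 9 and lost without VIP replicate 2.

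The Penk start region chr4:4138379-4139246 had 24.3 and 30.4 CPM in VIP, 15.8 and 8.86 in SST, and 14.2 and 8.88 in PV. Both VIP samples were above all 4 others. VIP was higher (1.18 ± 0.301; edgeR adjusted p = 0.00392) in all 10 settings. In contrast to the Tac2 region, every SST and PV sample also had reads here, at no less than 8.86 CPM.

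Oprd1, the delta receptor, had 5 called regions, and all 5 were lower in VIP. Its start region (chr4:132144008-132144892) had 19.4 and 10.6 CPM in SST, 15.8 and 17.2 in PV, and 1.49 and 1.34 in VIP. VIP was lower (-3.44 ± 0.495; edgeR adjusted p = 3.21e-05) in all 10 settings, and SST (1.61; edgeR adjusted p = 0.0103) and PV (1.83; edgeR adjusted p = 0.00255) were higher, kept in 7 and 9, the SST call being lost without SST replicate 1. An intronic region 6730 bases downstream of the start (chr4:132136964-132137756) had 11.0 and 13.7 in SST, 11.2 and 10.5 in PV and 0 in both VIP samples. VIP was lower there (edgeR adjusted p = 8.14e-06), and 16.6-fold below the mean of the other types when set to a floor of 3 reads. SST and PV were higher there (3.94 and 3.64; edgeR adjusted p = 0.000799 and 0.00113), with the calls kept in 10 and 9 settings. A second intronic region, 24189 bases in (chr4:132119424-132120297), was likewise lower in VIP (-3.85 ± 0.653; edgeR adjusted p = 0.000147), with 1.49 and 0 CPM against 8.88 to 13.1 elsewhere. Its higher calls in SST and PV were kept in 7 and 6 settings and lost without VIP replicate 2, and that of PV also without PV replicate 1. The other 2 regions lay in Epb41, a neighbouring gene, and were also higher in PV (edgeR adjusted p = 0.00151, kept in 9 settings, and 0.000429, kept in all 10). Oprd1 RNA was too sparse to set beside this, at 9 UMIs in SST, 0 in PV and 1 in VIP.

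Tacr1 had its largest call far from the start. The intergenic region chr6:82589232-82589905, 186898 bases downstream of the start and outside the gene, had 20.4 and 30.4 CPM in VIP, 1.02 and 0 in PV and 0 in both SST samples. VIP was higher (7.04 ± 0.628; edgeR adjusted p = 3.29e-07) in all 10 settings. SST was lower (edgeR adjusted p = 0.0212), a call kept in 8 and lost without PV replicate 1. With SST set to a floor of 3 reads, it was 18.1-fold below the mean of the other types. That mean was nearly all VIP. PV had 2 reads, under the floor of 3 reads used for SST, so the SST call does not separate SST from PV. VIP nuclei held 0 Tacr1 UMIs, but the ratio to the rest of the inhibitory nuclei has an interval up to 2.11, so the RNA is too sparse to set beside the region. At the start of Tacr1 a region was higher in SST (1.14; edgeR adjusted p = 0.0263) and lower in VIP (-1.0; edgeR adjusted p = 0.0328), each kept in 3 of 10 settings and lost when SST replicate 1 or either sample of PV or VIP was left out.

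The central 300 bases of 3 of these regions are printed because each had 0 reads in both samples of 1 type and passed the test in another, on the coding strand of the nearby gene. Among the centres of 40329 tested regions, TGCGTCA was found in 2.38%, TGACTCA in 8.19%, TAATTA in 3.80%, CAGCTG in 33.4% and TATAAA in 6.06%. The Tac2 sequence (chr10:127728358-127728657, plus strand) held CAGCTG at bases 212 and 233, the Oprd1 sequence (chr4:132137211-132137510, minus strand) held it at base 222, and the Tacr1 sequence (chr6:82589419-82589718, plus strand) held none of the 5, so it has no capitals.
Tac2 region: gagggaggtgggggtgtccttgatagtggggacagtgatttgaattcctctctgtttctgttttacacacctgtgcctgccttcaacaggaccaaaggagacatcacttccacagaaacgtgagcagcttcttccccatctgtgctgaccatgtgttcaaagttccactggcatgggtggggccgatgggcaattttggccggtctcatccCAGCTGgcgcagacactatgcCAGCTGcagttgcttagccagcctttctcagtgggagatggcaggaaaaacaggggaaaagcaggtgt
Oprd1 region: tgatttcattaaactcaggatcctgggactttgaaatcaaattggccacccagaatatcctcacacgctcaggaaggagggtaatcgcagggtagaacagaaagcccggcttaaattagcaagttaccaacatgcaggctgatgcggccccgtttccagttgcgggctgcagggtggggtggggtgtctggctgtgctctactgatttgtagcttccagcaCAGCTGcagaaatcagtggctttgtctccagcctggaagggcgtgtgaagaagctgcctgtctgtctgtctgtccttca
Tacr1 region: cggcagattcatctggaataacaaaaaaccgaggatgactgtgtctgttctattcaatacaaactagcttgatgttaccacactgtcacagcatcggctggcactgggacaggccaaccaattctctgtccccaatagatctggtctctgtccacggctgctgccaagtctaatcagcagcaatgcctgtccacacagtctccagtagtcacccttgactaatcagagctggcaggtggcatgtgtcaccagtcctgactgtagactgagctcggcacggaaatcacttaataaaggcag

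**Figure D4:**
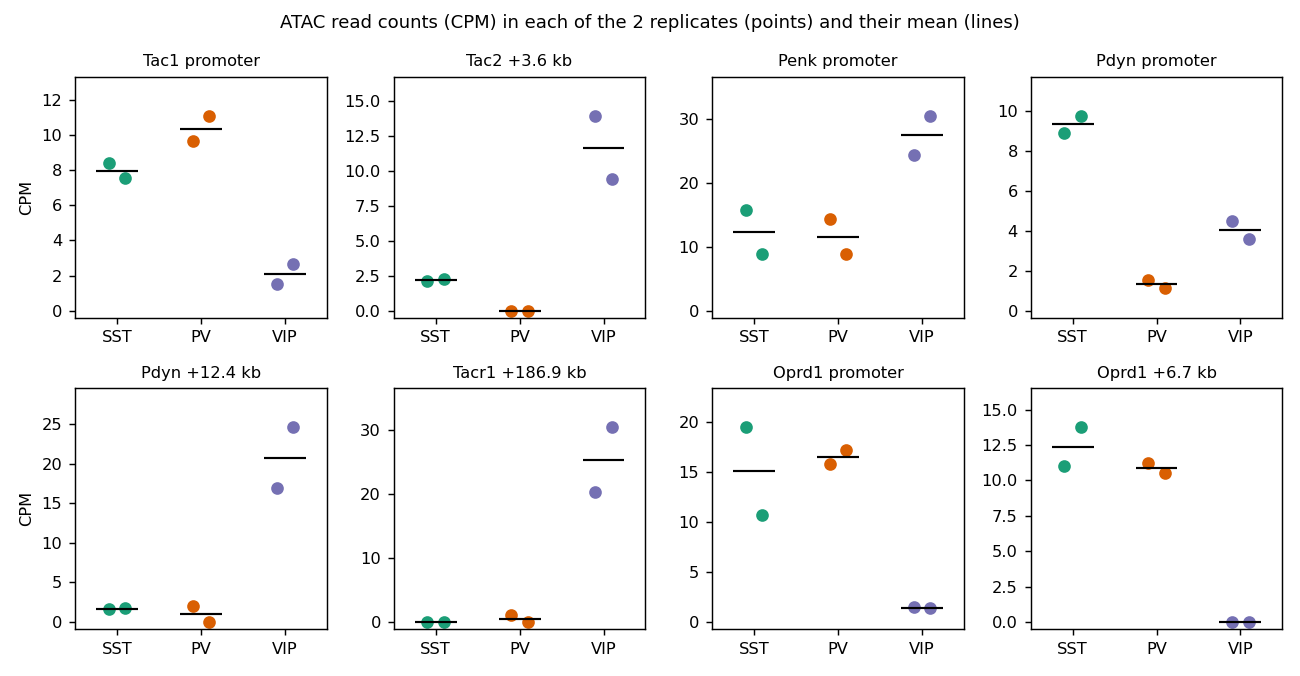
ATAC read counts as CPM in each of the 2 replicates of SST, PV and VIP (points) with their mean (lines), for the starts of Tac1, Penk, Pdyn and Oprd1 and for the called regions away from the start of Tac2, Pdyn, Tacr1 and Oprd1 with their distance from it; each y axis starts near 0 and differs between panels. The 2 replicates lie close to one another beside the gaps between types at the Tac2 region (13.9 and 9.39 in VIP, 0 in PV) and the Oprd1 intronic region (0 in VIP).

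The starts of Tacr3, Oprl1 and Oprk1 were lower in VIP than in the other types. Tacr3 had 9.93 and 5.36 CPM in VIP against 19.1 to 24.2 elsewhere (-1.48 ± 0.342; edgeR adjusted p = 0.00193), kept in 8 of 10 settings and lost without VIP replicate 2. Oprl1 had 0.990 and 1.79 in VIP against 4.99 to 11.0 elsewhere (-2.44 ± 0.569; edgeR adjusted p = 0.00201), kept in 9, and its SST call (1.41; edgeR adjusted p = 0.0496) was kept in 3 and lost without SST replicate 1, PV replicate 2 or either VIP sample. Oprk1 had 1.49 and 4.02 in VIP against 5.59 to 7.87 elsewhere (-1.24 ± 0.485; edgeR adjusted p = 0.0413), kept in 4 and lost when either sample of PV or VIP was left out. Oprk1 RNA, which was highest in SST, had no SST call at its start (0.88; edgeR adjusted p = 0.192). An intergenic region 43874 bases from the Oprl1 start (chr2:181758890-181759605) was higher in VIP (2.83 ± 0.478; edgeR adjusted p = 0.000140) in all 10 settings, with 7.94 and 12.1 CPM against 1.02 to 2.22 elsewhere. Its lower call in PV (-1.89; edgeR adjusted p = 0.0485) was kept in 3. That call was lost with the replicate block and without either PV sample, SST replicate 2 or VIP replicate 2. Over the Rgs19 exon upstream of the Oprl1 start, PV was lower (-1.0; edgeR adjusted p = 0.0286), kept in 7 and lost without PV replicate 2, and VIP higher (0.75; edgeR adjusted p = 0.0397), kept in 5 and lost without PV replicate 2 or either VIP sample. Neither tested region near Oprm1 was called, the closest being 29776 bases into the gene in VIP (-0.76; edgeR adjusted p = 0.0513).

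Counted by peaks, 27 of the 240 regions near members (11.2%) were covered by a peak in both SST replicates, 24 (10.0%) in both PV replicates and 24 (10.0%) in both VIP replicates, where 10.9%, 10.7% and 11.8% of all 323369 regions were. Of the 240, 14 (5.83%) were covered in all 3 types and 13 (5.42%) in 1 type only, where 5.87% and 8.25% of all regions were. These differences in share were not tested.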

How the data were processed

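Nuclear RNA of 1 sample (10 libraries) was deposited as UMI counts per gene and barcode, which the authors made with the inDrops pipeline on a GRCm38 transcriptome with a contig for each viral barcode. Viral columns were left out, and barcodes with more than 200 remaining UMIs were kept. Gates used UMIs per nucleus: 3 or more Sst for SST, 2 or more Pvalb, Vip or Npy for PV, VIP and NPY (the last with at most 2 Sst), each with fewer than 2 UMIs of an excitatory list and fewer than 3 of each non-neuronal list. Other nuclei took the class whose marker list was at least 2 times every other. Ratios have exact conditional 95% intervals, and a group at 0 was set to a floor of 3 counts. Ratios were counted for genes with at least 20 UMIs.

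ATAC-seq read counts per region were deposited by the authors, who per the submitters' processing notes used Trimmomatic 0.33, Subread 1.4.6-p3 and featureCounts, with duplicates removed. Peak lists carry the −log10 q of MACS2 as the authors deposited them, called per replicate and kept where HOMER also called a peak. The deposited region table also gives a mean phyloP score made by the authors, of which no value is printed, and its mm10 coordinates were used. A table of annotated candidate elements was not used here. Counts were fitted in edgeR 4.0.16 (R 4.3.3; TMM, filterByExpr, quasi-likelihood test, adjusted p under 0.05) over all 6 samples. The SE beside a log2 fold change was derived as the size of that change divided by the square root of the test's F statistic. DESeq2 1.42.0 was an alternative. A region was near a gene when within 50 kb of its GENCODE M21 body, and a peak covered it when 1 base was shared. The fit was tested on simulated data. Promoter sequences from RefSeq (GRCm38) existed for 8 of the 10 members, and those entries were equal to the genome read by coordinates.

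The 10 genes were fixed by name, all are described, and at most 3 called regions a gene were given in full. The named similar genes are the 3 with the highest correlation among genes with 200 or more UMIs, for members with at least 100. The members and gene lists were chosen with earlier results of these data known.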

Additional observations from a re-analysis of the deposited data

Results flagged for a closer look

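Over 11 pairs of gene and gate, a library was looked for whose level stood far from the other 9 by Dixon's ratio, which chance alone would give in about 1 group in 20. There were 2. Penk in the astrocyte gate reached 16.1 per 10000 in 1 library of set 2, where the next was 8.82 and the lowest 2.02. Without that library the level was 4.96 (4.52 to 5.43) against 5.69 with it. Penk in layer 2/3 excitatory nuclei reached 1.60 in 1 library of set 1, where the next was 0.949 and the lowest 0.306. Without it the level was 0.636 and the ratio to the other layers 5.44, against 0.712 and 6.15 with it.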

How the results depend on the processing

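The levels and ratios of the members were set by counting error and by 1 sample, and no call in the chromatin data changed direction in any setting tried. Over all regions, the DESeq2 Wald test called 864 higher and 589 lower in SST, 2494 and 1814 in PV, and 5038 lower in VIP. Without a filter on low counts (310118 regions tested) the counts were 411 and 157 in SST, 725 and 493 in PV, and 2985 lower in VIP. Near the members, DESeq2 called 1 higher in SST and 1 lower in PV. No filter left 1 higher and 0 lower in SST, 1 higher and 1 lower in PV, and 6 lower in VIP. With 10 kb on each side, where 19 regions were tested, there were 0 lower in SST, 3 lower in PV and 3 higher in VIP. With 100 kb, where 43 were tested, there were 2 lower in SST, 10 higher and 8 lower in PV, and 12 higher in VIP. The main window had 28 tested regions, so these counts differ in their base. Of the 36 calls near members, DESeq2 kept 21, DESeq2's size factors in edgeR 35, no filter 15, and leaving out 1 sample from 26 to 35. Leaving out 1 sample at a time gave 2865 to 4958 higher regions in SST, 2408 to 10035 higher and 1759 to 8280 lower in PV, and 7303 to 15170 higher and 5064 to 11813 lower in VIP. Near members it gave 4 to 9 higher and 0 to 1 lower in SST, and 1 to 5 lower in PV. The lowest PV counts came without PV replicate 1 (2408 and 1759), and PV replicate 2 gave 3683 and 1933. With 1 sample left in a type, its spread is taken to be that of the other types. Peaks with a −log10 q of at least 10 covered 12 regions in PV, against 24, with 8 against 13 in 1 type only and 8 against 14 in all 3 types. A fit with the replicate number as a block called 2994 higher and 1935 lower in SST, 6644 and 4393 in PV, and 9891 and 9250 in VIP, and kept 35 of 36 calls near members. Deviations of same-numbered samples had correlations of 0.0233 (SST and PV), 0.0297 (SST and VIP) and -0.0366 (PV and VIP), so the numbers were not taken to pair the samples. The inhibitory to excitatory ratio of Penk was 6.51 in nuclei with more than 500 UMIs, 7.26 and 9.69 in library sets 1 and 2, and 12.2 as a mean over nuclei. The ratio of Pdyn was 13.4 and 27.9 in the 2 sets, and that of Tac2 was 313 in set 2. The SST to other inhibitory ratio of Penk was 0.140 and 0.338 in the 2 sets. Of settings added after the data were seen, leaving out 1 library at a time took the inhibitory to excitatory ratio of Penk to 7.30 to 8.63, Penk in VIP to 23.1 to 27.5 UMIs per 10000, Penk in the astrocyte gate to 4.96 to 5.99 and Tac1 in PV to 1.94 to 2.73, gates with no limit on excitatory UMIs gave Penk in VIP at 19.5, and astrocyte-gate nuclei with fewer than 3 fibroblast UMIs gave Penk at 1.30. The cause of these differences was not tested. Depth limits 4 of the 6 receptors, with 0 to 9 UMIs of Tacr1, Tacr3, Oprm1 and Oprd1 in any 1 interneuron gate.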
